A study of Mus musculus with 2 samples.

Results

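The calcium/calmodulin-dependent kinase family, here the 9 genes Camk2a, Camk2b, Camk2d, Camk2g, Camk4, Camkk1, Camkk2, Camk1 and Camk1d, was described in young mouse cortex. The genes were taken by symbol, as 9 of the 55536 annotated genes, and no measured value was part of the rule. The tissue was left cerebral cortex of female mice aged 14 days, of strain B6CASTF1/J (the F1 cross between C57BL/6J and CAST/EiJ), with no treatment named. There were 2 libraries of 1 group, replicate 1 and replicate 2, each of total RNA depleted of ribosomal RNA, made from 300 ng with ERCC spike-ins. The general description of both mentions 3 females, the tissue label of replicate 2 mentions a single female, and both carry the same donor entry, so the number of mice in each library is not known and the spread between them may be partly technical. With 1 group the data give levels, compositions and the difference between these libraries, and an exact test over 2 libraries cannot go below p = 0.5.

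All 9 proteins are kinases that calmodulin switches on once it has bound calcium. CaMKII is a large ring of subunits encoded by Camk2a, Camk2b, Camk2d and Camk2g, each with a catalytic domain, an autoinhibitory segment, a variable linker and a hub domain that holds the ring together. In cortical neurons it is a major protein of the postsynaptic density, and its autophosphorylation at glutamatergic synapses is a step in long-term potentiation. CaMKI and CaMKIV act as monomers and need phosphorylation by an upstream kinase, CaMKK, for full activity. CaMKIV is mainly nuclear and phosphorylates CREB.

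In mm10 coordinates of the GENCODE M21 annotation, Camk2a spans chr18:60925618-60988152 on the plus strand, Camk2b chr11:5969644-6066362 on the minus strand, Camk2d chr3:126596302-126846326 on the plus strand and Camk2g chr14:20734875-20794088 on the minus strand. Camk4 lies at chr18:32934931-33191228 on the plus strand. The genes of the upstream kinases are Camkk1 at chr11:73019008-73042073 on the plus strand and Camkk2 at chr5:122731170-122779409 on the minus strand. Camk1 lies at chr6:113334124-113343984 and Camk1d at chr2:5293457-5714515, both on the minus strand.

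The depth was 33.4M gene counts for replicate 1 and 32.0M for replicate 2. All 5 excitatory neuron markers reported (Slc17a7, Neurod6, Neurod2, Tbr1 and Nrgn) reached 1 TPM in each library, where TPM is the share of a library's transcripts, corrected for transcript length and scaled to 1e+06 in all. Their summed level was 2312 TPM in replicate 1 and 2142 TPM in replicate 2. Markers of other tissues and cell types were also detected: the 6 striatal markers summed to 229 and 139 TPM and the 6 markers of myelinating oligodendrocytes to 2245 and 1255 TPM, in replicate 1 and replicate 2. The 6 choroid plexus markers summed to 146 and 245 TPM, of which Enpp2 made up 134 and 108 TPM and Ttr 9.86 and 131 TPM. No marker of these 4 lists was at 0 in either library. All striatal and oligodendrocyte markers reached 1 TPM in each library, but only 3 of the 6 choroid plexus markers did. In such bulk tissue, fewer cells of a type and less RNA per cell cannot be told apart.

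All 9 kinase genes reached 1 TPM in each library, as did 58.8% of the 22015 nuclear protein-coding genes. Camk2a stood first, with 916 TPM in the first library and 865 TPM in the second, a mean of 891 ± 36.0 TPM (SD, n = 2). It ranked 21st and 22nd among nuclear protein-coding genes. Camkk1 was the lowest member, at 23.9 and 22.3 TPM, and Camk2a exceeded it 38.6-fold ± 0.251 (SD, n = 2). The family together held 1848 TPM in replicate 1 and 1798 TPM in replicate 2, and took 0.408% and 0.396% of all gene counts.

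Among the 4 CaMKII genes, Camk2a, the alpha subunit of excitatory forebrain neurons, was followed by Camk2b, the beta subunit that binds actin filaments, at 367 and 365 TPM in replicate 1 and replicate 2. Camk2g, the gamma subunit, stood at 162 and 150 TPM. Camk2d, the delta subunit, which is also abundant in heart, stood at 56.3 and 83.1 TPM. No 2 of these 4 genes overlapped in level. The ratio of Camk2a to Camk2b was 2.49 and 2.37 in the 2 libraries, while that of Camk2a to Camk2d was 16.3 in replicate 1 and 10.4 in replicate 2.

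As a composition, CaMKII genes made up 81.3% ± 0.0615 of the family's TPM (SD, n = 2). The second quantification of the same libraries, made from the reads without the first alignment, gave 79.6% ± 0.152, and expected counts, which weight long transcripts more, gave 82.1% ± 0.313. Within CaMKII, Camk2a held 60.1% ± 1.32 and Camk2b 24.7% ± 0.339. Camk2g held 10.5% ± 0.390. Camk2d had the smallest share, 3.75% in replicate 1 and 5.68% in replicate 2.

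Outside CaMKII the highest member was Camk4, the nuclear kinase, at 123 and 113 TPM in replicate 1 and replicate 2. Camkk2, which activates CaMKI and CaMKIV and also phosphorylates AMPK, stood at 107 and 101 TPM. Camkk1, the other upstream kinase, was 4.52-fold lower than Camkk2 ± 0.0263 (SD of the ratio Camkk2 over Camkk1, n = 2), and Camkk2 held 81.9% ± 0.0862 of the TPM of the pair. Camk1d and Camk1 encode CaMKI isoforms. Camk1d stood at 46.5 and 50.5 TPM, and Camk1 at 45.5 and 48.4 TPM.

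In the order Camk2a, Camk2b, Camk2g, Camk4, Camkk2, Camk2d, Camk1d, Camk1, Camkk1, 7 of 8 pairs of neighbours did not overlap between the libraries. The exception was Camk1d and Camk1, whose values interleaved. Their order also changed with the quantification: the second one put Camk1 at 63.2 and 70.7 TPM above Camk1d at 55.8 and 64.0 TPM, again with overlap, and the other 7 neighbours again apart. By expected counts, which are not corrected for length, Camk1d had 4913 and 4768 counts against 1431 and 1465 for Camk1. Camk1d-201, the main transcript, is 6962 nucleotides long, and Camk1-201 1496 nucleotides.

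**Figure D1:**
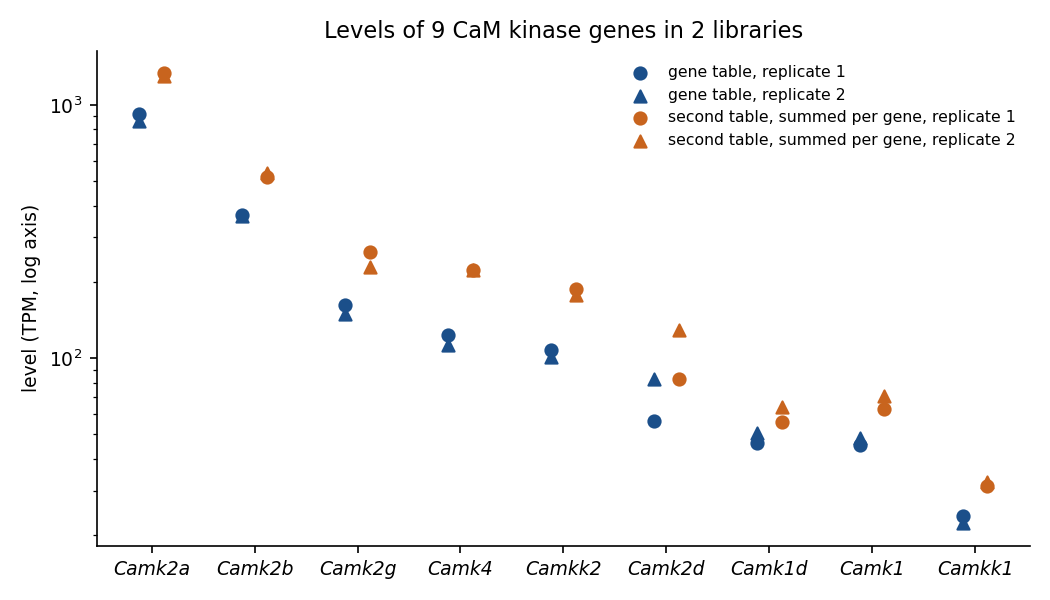
Level of each of the 9 genes in TPM on a log axis. Circles are replicate 1 and triangles replicate 2, blue for the gene table and orange for the second table summed per gene. Camk2a is highest and Camkk1 lowest in all 4 sets of values, Camk2d shows the widest gap between the libraries, and Camk1d and Camk1 overlap.

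The members share little sequence with other genes. Of all stretches of 31 bases in a member's annotated transcripts, at most 0.790% also occur in a transcript of another gene, the highest share being that of Camk2a, and none do for Camk2g, Camk4 and Camkk1. Camk1 overlaps Ogg1, a DNA repair gene on the opposite strand, over 945 nucleotides of its span, and Ogg1 had 57 and 76 counts. How the counting treated strand is not given, so the levels of this pair are uncertain to that extent.

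The 9 genes have 95 annotated transcripts, 51 of them protein-coding. In 9 of 9 genes the same transcript had the highest mean share in both quantifications, and in 7 it held over 50% of the gene's TPM in both. The lead was narrow in Camk2g. In replicate 1 of the first table Camk2g-201 held 19.3%, Camk2g-203 18.6% and Camk2g-212 18.1%. In replicate 2 of the second, Camk2g-201 held 25.5% and Camk2g-212 24.5%. Camk2b was the least divided CaMKII gene, with Camk2b-209 at 90.8% ± 0.251 of its TPM (SD, n = 2) in the first transcript table and 89.0% ± 2.80 in the second. This transcript is 4023 nucleotides long with a coding region of 1626. Camk2a-203 held 64.7% ± 0.648 of Camk2a TPM and Camk2a-207, a model of 530 nucleotides that the annotation tags as incomplete, held 23.9% ± 0.583. By counts Camk2a-203 held 88.4% and 87.1% and Camk2a-207 only 2.91% and 2.81%, since TPM divides counts by effective length.

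The remaining genes divided as follows. Camk4-201 held 98.6% ± 0.363 of Camk4 TPM in the first table and 70.1% ± 2.51 in the second. Camkk1-201 held 91.2% ± 2.13 and 73.8% ± 9.56, and Camkk2-201 74.1% ± 2.66 and 60.2% ± 1.88. Camk1-201 held 71.2% ± 4.39 in the first table and 75.8% ± 0.675 in the second. Camk1d-201 held 65.2% ± 3.99 and 77.8% ± 8.46. The leader stayed below 50% only in Camk2d, where Camk2d-206 held 31.3% ± 1.92 and 42.4% ± 4.52, and in Camk2g, where Camk2g-201 held 22.2% ± 4.14 and 24.6% ± 1.19.

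Below the leaders, the protein-coding Camk2d-203 and Camk2d-228 held 12.6% ± 1.54 and 12.1% ± 2.89 of Camk2d TPM in the first table. In the second they held 7.47% ± 2.12 and 6.64% ± 2.61, and Camk2d-221, at 2.48% ± 0.563 in the first, held 7.82% ± 2.10. In Camk2g, 6 transcripts reached 10% in either quantification. Besides the leader these were Camk2g-212 (18.3% ± 0.358), Camk2g-203 (16.7% ± 2.69), Camk2g-204 (14.3% ± 0.459) and Camk2g-202 (10.7% ± 3.20) in the first table, and Camk2g-207, at 10.3% ± 0.434 in the second against 1.24% ± 0.219 in the first. Camk2g-203 held 10.9% ± 1.31 in the second. Camk2g-212 and Camk2g-204 are incomplete models, and incomplete models held 34.5% and 35.8% of Camk2g TPM in replicate 1 and replicate 2. Camk1d-202, which starts inside Camk1d and codes for 1131 nucleotides against 1155 in Camk1d-201, held 15.5% ± 2.32.

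Some transcripts were seen by one quantification and hardly by the other. Camk4-203, annotated as a target of nonsense-mediated decay, was listed at 0 in both libraries of the first table and held 17.5% and 11.9% of Camk4 TPM in the second. Camk4-202, an incomplete model of 526 nucleotides, held 1.42% ± 0.363 in the first table and 15.2% ± 6.47 in the second. Camk2a-202, whose coding region of 567 nucleotides covers only the 3′ part of the gene, held 0.826% ± 0.200 in the first table and 13.2% ± 0.410 in the second. The noncoding Camk1d-204 went the other way, at 17.2% ± 1.61 and 3.45% ± 0.733. Of the intron-retaining transcripts, Camk1-202 held 12.6% ± 0.874 and 7.11% ± 2.55, and Camkk1-203 held 8.84% ± 2.13 and 21.1% ± 2.32.

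**Figure D2:**
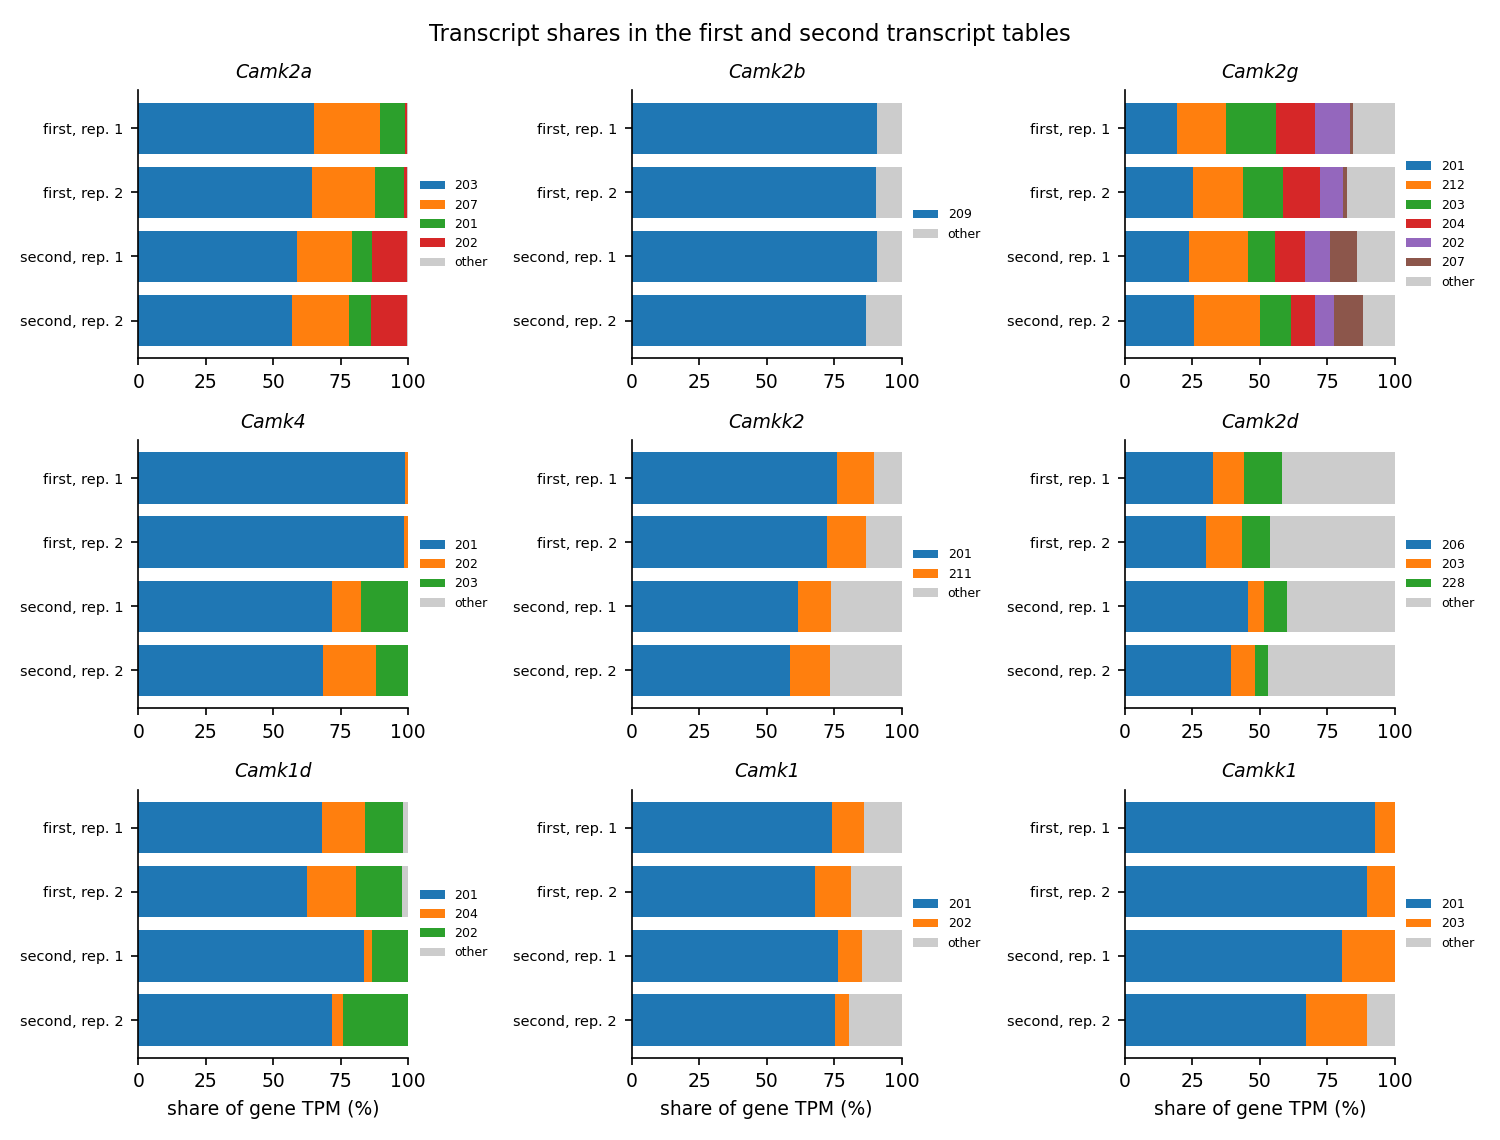
Share of each gene's TPM held by the transcripts that reached a mean of 10% in either transcript table, as stacked bars on an axis from 0 to 100%, with all other transcripts in grey. In each panel the upper 2 bars are the first transcript table and the lower 2 the second, for replicate 1 and replicate 2. A single transcript dominates Camk2b in all 4 bars, while no transcript reaches 50% of Camk2d or Camk2g.

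Transcripts of 1 gene were then combined by the coding exons they contain. Inclusion of an exon was taken as the TPM of protein-coding transcripts with that exon, as a percentage of the TPM of those whose coding region spans it. Between 5% and 95% in both libraries lay 10 internal coding exons by the first table, 4 each in Camk2d and Camk2g, and 11 by the second. Several lie in the variable linker of CaMKII, and one is shared by 3 of the genes. It is an exon of 33 nucleotides that begins with the codons of lysine, arginine and lysine, the basic residues of the nuclear localisation signal known from the alphaB, deltaB and gammaA forms of the kinase. The Camk2d exon at chr3:126802937-126802969 (mm10, plus strand) and the Camk2g exon at chr14:20747819-20747851 (minus strand) are shown because they are so alike and were used so differently, with capitals marking those 3 codons:

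Camk2d 33-nt exon: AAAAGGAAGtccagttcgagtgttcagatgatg

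Camk2g 33-nt exon: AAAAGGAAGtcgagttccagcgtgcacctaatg

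These exons are identical at 26 of 33 bases, and the Camk2a exon is identical to each of them at 28 of 33. Inclusion in Camk2g was 45.0% in replicate 1 and 54.5% in replicate 2 of the first table, and 61.2% and 66.7% in the second. In Camk2a it was 12.6% and 14.5% in the first table and 9.47% and 10.4% in the second. In Camk2d it was 0.835% and 1.06%, and 1.06% and 1.74%. The order Camk2g, Camk2a, Camk2d therefore held in both libraries and both quantifications without overlap. Left to complete transcripts, Camk2g stood at 38.9% and 53.1% in the first table and 58.3% and 62.6% in the second. The Camk2d value rests on Camk2d-205 alone, at 0.340 and 0.620 TPM in the first table and 0.671 and 1.53 TPM in the second. Camk2d-201, an incomplete model that starts within this exon, is not counted in it and stood at 0.620 and 0 TPM in the first table and 2.46 and 0 TPM in the second. With it counted, a choice made after seeing the data, Camk2d inclusion in replicate 1 was 2.32% in the first table and 4.78% in the second, still below Camk2a, and replicate 2 did not move. As a level in the first table, Camk2a-201, the main Camk2a transcript with the exon, had 85.2 and 93.0 TPM, and Camk2g-201, its Camk2g counterpart, 31.2 and 37.6 TPM.

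Camk2d also carries a pair of alternative exons of 73 nucleotides each in the catalytic domain. They lie 916 nucleotides apart, and of the 9 protein-coding transcripts that span them each contains exactly 1. The upstream exon is at chr3:126770785-126770857 and the downstream exon at chr3:126771774-126771846 (mm10, plus strand). They are shown because the choice between them changes part of the kinase domain, and capitals mark the bases at which they differ:

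Camk2d upstream 73-nt exon: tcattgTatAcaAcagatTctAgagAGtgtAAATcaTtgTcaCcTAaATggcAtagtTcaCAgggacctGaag

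Camk2d downstream 73-nt exon: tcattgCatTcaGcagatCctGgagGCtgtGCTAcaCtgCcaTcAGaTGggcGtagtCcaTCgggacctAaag

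They differ at 21 of 73 bases. The upstream exon was included at 81.3% in replicate 1 and 76.5% in replicate 2 of the first table, and at 79.9% and 77.7% in the second. The downstream exon made up the rest, 18.7% and 23.5% in the first table and 20.1% and 22.3% in the second. The upstream version thus held most of the protein-coding Camk2d TPM in both libraries, with a mean of 78.9% ± 3.41 (SD, n = 2) in the first table.

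Closer to the hub, the linker of Camk2b has an exon of 45 nucleotides at chr11:5981070-5981114 (mm10, minus strand), and Camk2d one of 42 nucleotides at chr3:126808208-126808249 (plus strand). Both are printed because they are similar exons with different use, and capitals mark the bases that are identical in a global alignment:

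Camk2b 45-nt exon: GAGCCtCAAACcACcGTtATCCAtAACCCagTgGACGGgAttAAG

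Camk2d 42-nt exon: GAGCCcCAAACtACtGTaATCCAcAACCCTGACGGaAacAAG

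The alignment has 34 identical bases. The Camk2b exon was included at 98.1% and 96.4% in the first table and 96.9% and 95.6% in the second. The Camk2d exon was lower, at 82.9% and 78.5% in the first table and 88.4% and 80.2% in the second. In complete transcripts only, it stood at 90.9% and 87.7% in the first table and 94.99% and 90.12% in the second. Each gap to Camk2b was then smaller, and smallest in replicate 1 of the second table. The different use thus rests partly on incomplete models, but the Camk2d exon was still below Camk2b in both libraries of both tables. The Camk2d linker exon before it, 60 nucleotides at chr3:126805857-126805916, was included at 82.1% and 80.4% in the first table and 87.8% and 86.6% in the second.

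The first linker exon, matched between genes by position and not by alignment, also differed in use. In Camk2b it has 75 nucleotides, at chr11:5987057-5987131, and was included at 98.1% and 96.4% in the first table and 95.1% and 92.0% in the second. In Camk2g the exon of 63 nucleotides at chr14:20757666-20757728 stood at 39.2% and 39.9% in the first table and 41.8% and 40.1% in the second. No complete Camk2g transcript contains that exon, so its value rests on incomplete models. The same holds in large part for the Camk2g exon of 114 nucleotides at chr14:20741378-20741491, at 18.1% and 18.3% in the first table but 1.55% and 2.19% in complete transcripts. In the second table it stood at 17.9% and 17.8%, and at 7.41% and 12.1% in complete transcripts. The Camk2g exon of 69 nucleotides at chr14:20745792-20745860 was included at 39.6% and 42.4% in the first table, and at 64.0% and 70.1% in complete transcripts. In the second table it stood at 46.8% and 46.3%, and at 78.7% and 76.6% in complete transcripts.

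Outside these, Camk2a has an exon of 41 nucleotides that was at 98.8% and 98.4% in the first table and 83.5% and 82.7% in the second. Camk2a-202, which has no exon with these ends, is the transcript on which the tables differed. It starts at position 60963600, upstream of this exon at chr18:60963923-60963963. The lower value of the second table therefore need not mean that the exon was skipped. Camkk2 has an exon of 43 nucleotides near the 3′ end of its coding region, at chr5:122736988-122737030, whose length is no multiple of 3, so that its absence changes the end of the protein. It was included at 81.8% and 79.7% in the first table and 80.1% and 76.2% in the second. The coding region of Camkk2-201, with the exon, has 1764 nucleotides and that of Camkk2-211, without it, 1623.

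**Figure D3:**
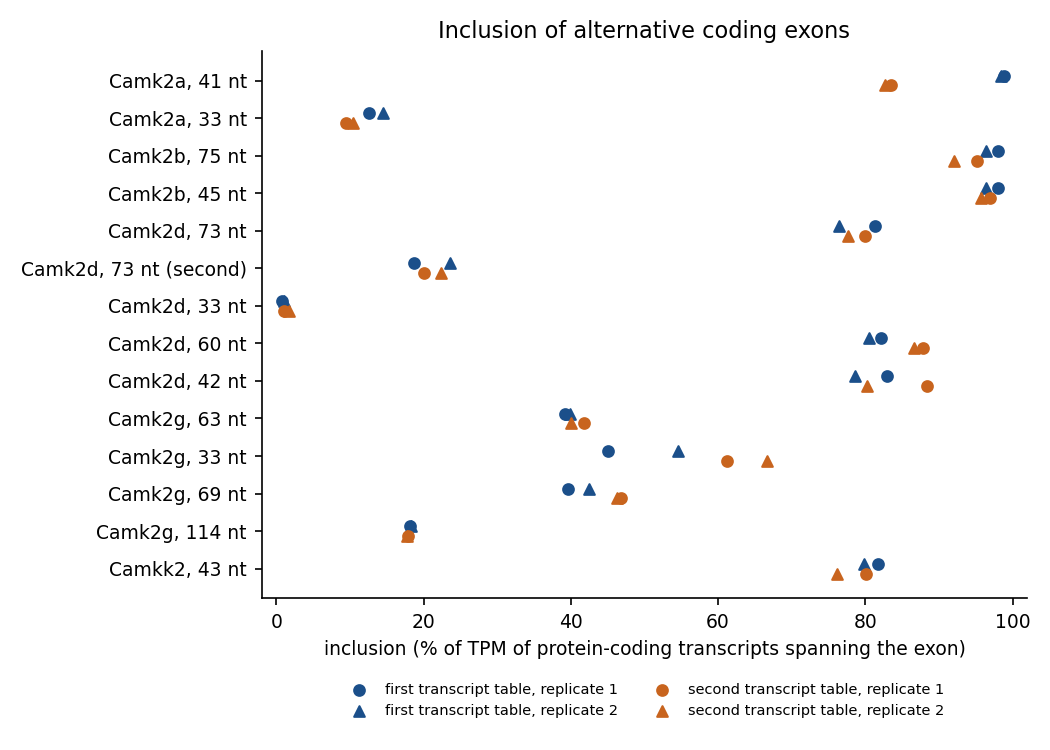
Inclusion in percent of alternative coding exons, named by gene and length and listed from 5′ to 3′ within each gene. Circles are replicate 1 and triangles replicate 2, blue for the first transcript table and orange for the second. The 33-nt exon lies near 0 in Camk2d, between 9.47% and 14.5% in Camk2a and between 45.0% and 66.7% in Camk2g.

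The libraries were then compared with an exact binomial test (two-sided) of each gene's counts, which takes counting error alone and bears on these libraries, not on conditions. At an adjusted p under 0.05 it called 20.3% of the 18887 genes tested, 8.88% higher and 11.4% lower in replicate 2, and 38.3% of the 5575 genes with 1000 counts or more in both libraries, 10.5% higher and 27.8% lower. Of the 9 members, all with such counts, 7 were called: Camk2d higher in replicate 2, and Camk2a, Camk2b, Camk2g, Camk4, Camkk1 and Camkk2 lower. Camk1 and Camk1d were not called. The members' median log2 ratio was -0.14 against 0.00097 over all tested genes. Of all calls, 43.8% were higher in replicate 2 with the TMM library sizes used here, 70.5% with total counts and 67.6% with spike-ins. With either of those scalings 5 members were called, 1 higher and 4 lower. The calls of Camkk1 and Camk2b were lost, and the Camk2b ratio lay at 0.0063 and -0.00038 instead of -0.05. Camk1d, not called under any of these scalings, changed sign too, to 0.016 and 0.0096.

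Camk2d received 4244 and 5876 counts, which put replicate 2 higher by 0.47 ± 0.0291 on the log2 scale (counting SE), or 1.38-fold (adjusted p = 2.72e-57, exact binomial test). That difference was larger than those of 99.2% of the genes with 1000 counts or more in both libraries. It was 0.46 in the second quantification and between 0.47 and 0.53 under the other scalings. Of 19 Camk2d transcripts with 10 counts or more in a library, 18 had a higher TPM in replicate 2. These transcripts divide shared reads of 1 gene, so they are not separate observations. Protein-coding Camk2d transcripts were 1.46-fold and intron-retaining ones 1.53-fold higher in TPM, and the whole gene stood at 56.3 and 83.1 TPM. These TPM ratios are not on the scale of the 1.38-fold, which used counts and TMM library sizes. In addition, the annotation places 7 unclassified single-exon models in Camk2d introns on the same strand, with 88 counts in replicate 1 and 173 in replicate 2, and all 7 had more counts in replicate 2. With an assumed spread between libraries, a dispersion of 0.01 in edgeR's exact test, Camk2d was not called (adjusted p = 0.654), nor was any other member, and 0.964% of genes were.

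The 6 members called lower differed by small amounts. Camk2g had the largest of these differences, with 7331 and 6352 counts and a log2 ratio of -0.21 ± 0.0247 (counting SE, adjusted p = 4.23e-15, exact binomial test). Camk4 had 6837 and 5979 counts and a ratio of -0.19 ± 0.0255, and Camkk2 9766 and 8652 counts and a ratio of -0.17 ± 0.0213. Camkk1, with 1713 and 1539 counts, stood at -0.15 ± 0.0507 (adjusted p = 0.0165, exact binomial test), and its call was lost with total counts and with spike-ins (adjusted p = 0.188 and 0.151). Camk2a, with 70611 and 63908 counts, stood at -0.14 ± 0.00788, and Camk2b, with 29313 and 28252 counts, at -0.05 ± 0.0120. Camk1 stood at 0.03 ± 0.0536 and Camk1d at -0.04 ± 0.0293 (adjusted p = 0.730 and 0.352, exact binomial test).

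**Figure D4:**
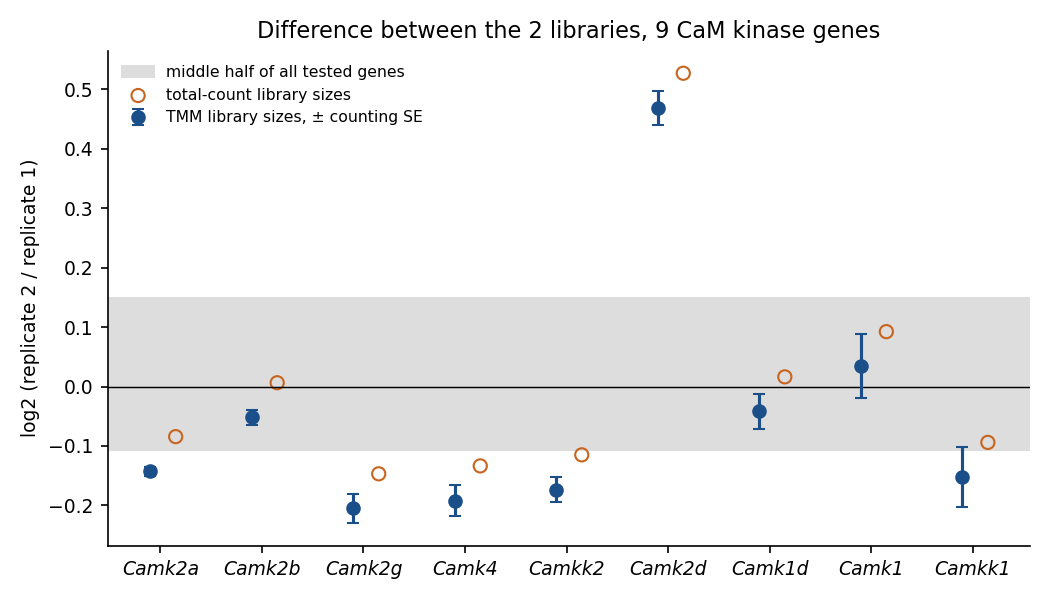
Difference between the libraries for each gene, as log2 of replicate 2 over replicate 1. Filled points with bars are ratios with TMM library sizes and their counting SE, open circles use total counts, and the grey band holds the middle 50% of all tested genes. Camk2d lies at 0.47, far above the band, and Camk2b and Camk1d change sign with the scaling.

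Several measures moved between the libraries together with these ratios. All 6 markers of myelinating oligodendrocytes and all 6 striatal markers were called lower in replicate 2, with median log2 ratios of -0.90 and -0.81, 5 of 6 choroid plexus markers were called higher with a median of 0.93 over the 6, and 4 of 5 excitatory neuron markers were called lower with a median of -0.16. The sixth choroid plexus marker, Enpp2, was called lower, at -0.27, against 3.58 for Ttr. Some of the others were near the floor, such as Folr1 with 4 and 34 counts and Clic6 with 25 and 68. The numbers called in these 4 lists were the same with total counts and with spike-ins. With TMM library sizes, small shifts were not limited to neurons. Called lower were 3 of 4 oligodendrocyte precursor markers (median -0.17), 3 of 5 microglial (-0.16) and 3 of 5 astrocyte markers (-0.13, 1 called higher). These numbers depended on the scaling. With total counts 2 precursor, no microglial and 2 astrocyte markers were called lower, and 2 astrocyte markers higher. With spike-ins 2 precursor, no microglial and 3 astrocyte markers were called lower, and again 2 astrocyte markers higher. With TMM again, 1 of 6 interneuron markers was called lower, and of 4 endothelial markers none. Of 5 hippocampal markers 2 were called higher and none lower (median 0.15). Of 5 thalamic markers 1 was called higher and 1 lower, and of 3 cerebellar markers tested 1 was called higher. Over all tested genes 8.88% were called higher and 11.4% lower. Among those with 1000 counts or more in both libraries, 10.5% were called higher and 27.8% lower. The share of TPM in intron-retaining transcripts was higher in replicate 2 for 6 of the 6 members with such transcripts, from 25.7% to 31.9% in Camk1 and from 17.8% to 18.4% in Camk2d, and for 69.4% of 7449 genes. The part of any of these in the members' differences was not tested.

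Other genes of the pathway were read from 6 lists, whose counts stand beside 8.88% called higher and 11.4% called lower over all tested genes, and 10.5% and 27.8% among genes with 1000 counts or more in both libraries. Of 7 genes for calmodulin and calmodulin-binding proteins, 1 was called higher and 5 lower in replicate 2, with a median log2 ratio of -0.12. The highest was Nrgn, neurogranin, which holds calmodulin in dendritic spines, at 1413 and 1277 TPM. Calm2 and Calm3, which encode calmodulin, stood at 1191 and 1127 TPM and at 1018 and 988 TPM. Each was above Camk2a in both libraries.

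Of 10 other CaM kinase genes and inhibitors, 1 was called higher and 5 lower, and 2 each way with total counts. The highest were Dclk1, a microtubule-binding kinase, at 525 and 503 TPM, Camk2n1, an inhibitor of CaMKII, at 378 and 357 TPM, and Camkv, a pseudokinase, at 186 and 188 TPM. The levels of Camk2n1 and Camk2b overlapped. Of 5 phosphatase genes 1 was called higher and 3 lower, and none lower with total counts or spike-ins. They were led by Ppp1ca, a catalytic subunit of protein phosphatase 1, at 157 and 159 TPM, Ppm1e, a CaM kinase phosphatase, at 91.3 and 89.6 TPM, and Ppp1cc at 77.4 and 80.5 TPM.

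Of 11 partners and substrates of CaMKII, none was called higher and 8 lower, and 1 higher and 5 lower with total counts. Stmn1, a microtubule regulator, stood at 559 and 580 TPM, Dlg4, the scaffold PSD-95, at 494 and 473 TPM and Syn1, the synaptic vesicle protein synapsin, at 283 and 274 TPM. Of 12 nuclear targets, 1 was called higher and 4 lower, with the balance turned to 4 higher and 1 lower under total counts. The highest were the transcription factor genes Mef2c, at 438 and 400 TPM, and Mef2d, at 88.9 and 94.9 TPM, and the histone deacetylase gene Hdac5, at 89.4 and 93.4 TPM. Of 6 AMPK subunit genes, 1 was called lower under TMM and 1 higher under total counts. They were led by Prkag2 at 43.2 and 49.3 TPM, Prkag1 at 21.3 and 21.5 TPM and Prkaa2, a catalytic subunit, at 14.7 and 15.7 TPM, all below the 101 TPM of Camkk2 in replicate 2. No gene of the 6 lists was called with a difference of 1.5-fold or more, as 3.25% of all tested genes were.

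**Figure D5:**
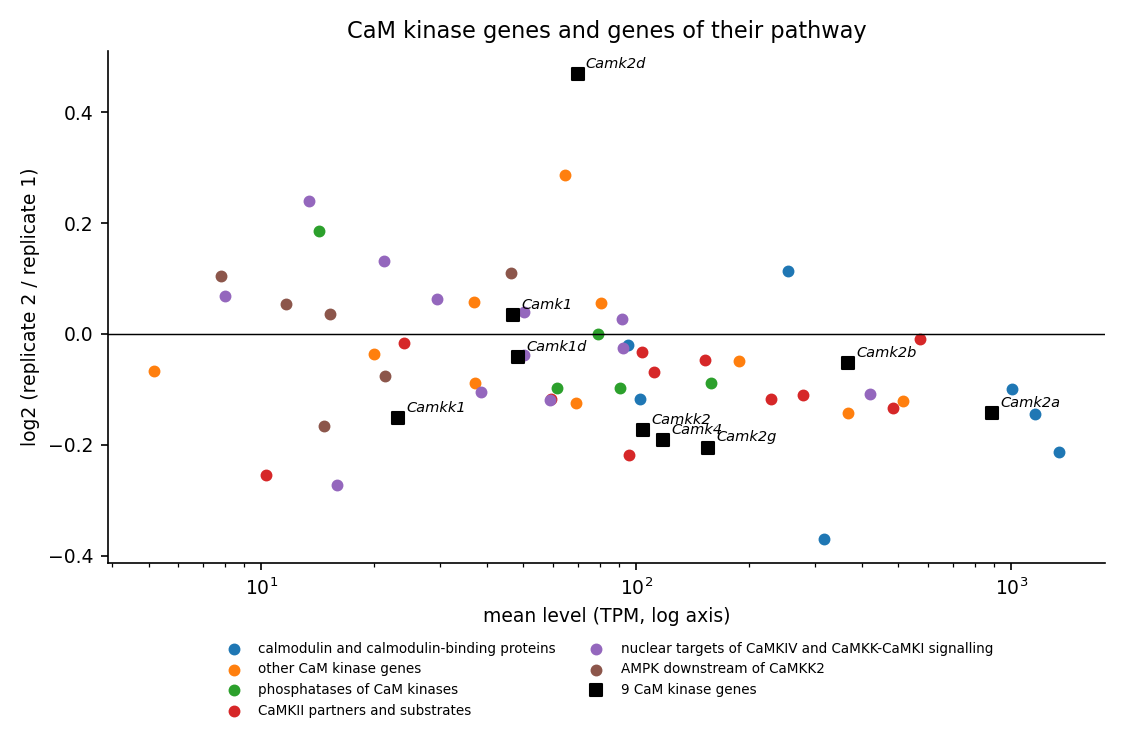
Mean level in TPM on a log axis against log2 of replicate 2 over replicate 1, for the 9 genes as labelled black squares and for the 6 pathway lists as coloured points. Camk2d has the highest ratio of all genes shown, and the calmodulin genes and Nrgn lie to the right of Camk2a.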

How the data were processed

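Total RNA-seq of 2 libraries was used. Expected counts and TPM of genes and transcripts were quantified by the authors from a transcriptome alignment, and a second table of estimated counts and TPM per transcript from the reads, on mm10 with GENCODE M21, per the README texts deposited beside them. Tools are not given in those sources. TPM were scaled by the authors over all rows, spike-ins included. Length minus effective length was 99 nucleotides in the first tables and 341 and 347 in the second.

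Spike-ins and other rows naming no gene (0.359% and 0.361% of counts) were left out. Gene symbols, exons and sequences came from the M21 annotation and transcripts. Expected counts were rounded. Genes with 10 counts or more in a library entered a two-sided exact binomial test with TMM library sizes (edgeR 4.0.16) and Benjamini-Hochberg adjustment. The code was checked on simulated counts with counting error alone, so that check says nothing about the test under a larger spread. Ratios are log2 of (CPM + 0.5), where CPM is counts per 1e6. Counts differed between libraries by more than sampling noise (chi-square 9.27 times its degrees of freedom), so both were kept. SEs cover counting error only. Exon inclusion uses TPM of annotated transcripts. Alternatives were the second table, other scalings, filters, added constants and an assumed dispersion. Named were all members, transcripts with a mean share of 10% or more, coding exons included at 5% to 95%, and the 3 highest genes reported of each pathway list. Some list genes are not reported here and enter no list value. The members and lists were chosen with earlier results of these data known.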

Additional observations from a re-analysis of the deposited data

How the results depend on the processing

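The CaMKII share of the family's TPM, 81.3%, was 79.6% in the second table and 82.1% by expected counts, and 81.3% and 81.4% with 1 library left out. The number of genes called between the libraries fell from 3830 to 182 with edgeR's exact test at an assumed dispersion of 0.01, and the members called from 7 to 0, with 1 member at an unadjusted p under 0.05. With total counts the log2 ratio of Camk2b turned to 0.0063 and that of Camk1d to 0.016, and with spike-ins that of Camk1d turned to 0.0096. The median log2 ratio over all tested genes moved as well, from 0.00097 to 0.057 with total counts and 0.051 with spike-ins. Why the scalings differ was not tested. The 7 separated neighbours in the order of levels and the 7 genes with a leading transcript over 50% kept these numbers under each alternative run. Not all of these runs could lower them. The filter at 1 TPM removed no member, and protein-coding transcripts alone can only raise the share of a protein-coding leader. Intermediate exons numbered 8 to 12, the 8 in complete transcripts only, an alternative added after seeing the data. The Camk2d inclusion of the 33-nt exon, 0.948% on average in the first table, was 1.69% with Camk2d-201 counted. Values of exons that rest on incomplete models, and of transcripts on which the tables differ, are limited by the annotation and by how shared reads were assigned. Both libraries belong to 1 group. No paired analysis was possible because there is no second group.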
